A study of Mus musculus with 6 samples.

Results

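The histone variants of the H2A family were followed in mouse common myeloid progenitors through 6 genes, H2afy, H2afy2, H2afz, H2afv, H2afx and H2afj, chosen by gene symbol. They are 6 of the 13932 genes in the gene table, and 61 of the 151811 splice junctions in the junction table belong to them. RNA was sequenced from donor-derived progenitors of transplanted mice, sorted as lineage-negative, c-Kit+, Sca-1-, CD34+ and Fcgamma-. Both genotypes carried rtTA, the doxycycline-dependent activator, and a U2AF1 transgene that it switches on, U2AF1(S34F) in 3 libraries and U2AF1(WT) in the other 3. Doxycycline chow was given for 5 days, after more than 6 weeks of engraftment, and each library pooled marrow of 4 to 5 mice. U2AF1 is the splicing factor subunit that binds the AG at the end of an intron, and S34F is a substitution that recurs in myelodysplastic syndromes. The WT libraries thus shared the transplantation, rtTA and doxycycline with the S34F ones, and the sources used here do not give the promoter of rtTA.

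H2A is a core histone of the nucleosome, and its variants replace it at chosen places in chromatin. MacroH2A, encoded by H2afy (macroH2A1) and H2afy2 (macroH2A2), carries a large globular macro domain and is known for a role in repressed chromatin and in holding cells to a differentiated state. The H2afy transcript holds a pair of mutually exclusive exons. The form with one of them, macroH2A1.1, has a macro domain that binds ADP-ribose products, whereas the form with the other, macroH2A1.2, does not bind them. H2A.Z, encoded by H2afz (H2A.Z.1) and H2afv (H2A.Z.2), sits at promoters and enhancers. H2A.X, encoded by H2afx, is phosphorylated beside DNA breaks, and H2A.J, encoded by H2afj, is known for its build-up in senescent cells.

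The sequences that matter most for the result are those around the H2afy exon pair, which lies on the minus strand of chromosome 13 (build mm9, sequence from the NCBIM37 assembly, positions counted from 1). The macroH2A1.2 exon is the upstream one and has 100 bases (56191119 to 56191218). The macroH2A1.1 exon has 91 bases (56189613 to 56189703). Each is entirely coding in the annotation and each stands, with these ends, in 1 annotated transcript. The exons differ by 9 bases, or 3 codons, and are identical at 48 of 91 aligned positions (52.7%). Both lengths leave a remainder of 1 when divided by 3, so an exchange of one exon for the other keeps the reading frame, and the loss of both does not. The windows below are given 5′ to 3′ with 40 intron bases and 10 exon bases, and the capitals mark the last 3 intron bases, which end in the AG that U2AF1 contacts.
macroH2A1.2 exon acceptor, chr13:56191209-56191258: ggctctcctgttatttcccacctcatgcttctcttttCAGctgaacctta
macroH2A1.1 exon acceptor, chr13:56189694-56189743: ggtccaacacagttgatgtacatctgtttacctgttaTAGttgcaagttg
shared downstream exon acceptor, chr13:56185637-56185686: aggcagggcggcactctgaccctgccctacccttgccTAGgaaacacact
The 2 competing acceptors differ in the base just before the AG, which is C for the macroH2A1.2 exon and T for the macroH2A1.1 exon. They also differ in the tract before it, where 17 of 20 bases are pyrimidines for macroH2A1.2 and 13 of 20 for macroH2A1.1. Over 130535 acceptors of the junction table, the base before the AG was C in 62.6%, T in 30.6%, A in 6.37% and G in 0.403%. Among the 28 annotated acceptors of the H2A variant genes it was C in 17, T in 7 and A in 4.

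The exons themselves are shown because reads that join them to their neighbours are the measurement, and the capitals mark the last 4 bases of the macroH2A1.1 exon, which a second, shorter form leaves out.
macroH2A1.2 exon: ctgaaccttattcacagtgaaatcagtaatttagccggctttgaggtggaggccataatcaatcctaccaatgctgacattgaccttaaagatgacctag
macroH2A1.1 exon: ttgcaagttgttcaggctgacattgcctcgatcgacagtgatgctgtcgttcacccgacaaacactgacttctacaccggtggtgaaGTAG

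The libraries held 46827909 to 51862032 gene counts in S34F and 54727541 to 94562984 in WT, and 41003848 to 44589528 against 46491099 to 82730420 junction counts. Kit (92.4 to 209 CPM), Cd34 (695 to 904 CPM) and Mpo (3043 to 6538 CPM) were present in every library, where CPM is a count scaled to a common library size. Markers of cells that the sort removes were low, with Ly6a, Cd4, Cd79a and Ly6g at 1.84 CPM or less, although Itgam was at 39.98 to 87.8 CPM. Xist and Ddx3y showed male cells in replicate 1 of both genotypes and female cells in the others. Mitochondrial genes took 2.44 to 2.77% of counts in S34F and 1.27 to 2.04% in WT. Dendritic cell markers were lower in S34F for 9 of 10 genes, and the sum of the list was 108, 53.0 and 74.0 CPM in S34F replicates 1, 2 and 3 against 390, 185 and 286 CPM in WT. Of these 10 genes, 7 passed the threshold of an adjusted p of 0.05 by DESeq2 and 0 by edgeR, which had 9 at an unadjusted p under 0.05. The 8 measured erythroid markers were all lower in mean (sums of 187, 114 and 151 against 237, 150 and 201 CPM, with 0 called by either tool and 4 at an unadjusted edgeR p under 0.05). Most of this erythroid sum was Car2, at 147, 77.1 and 103 against 148, 106 and 137 CPM, with overlapping ranges. The megakaryocyte sum was 111, 87.7 and 117 against 173, 127 and 150 CPM, with 4 of 6 genes lower, 0 called by either tool and 1 at an unadjusted edgeR p under 0.05. Most of that sum was Itga2b, at 94.8, 69.8 and 100.4 against 150.2, 113 and 132 CPM, while Pf4 and Vwf had log2 fold changes of 0.04.

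The level of no H2A variant gene passed the test. All 6 members passed the expression filter and 0 of 6 were called by edgeR's quasi-likelihood test, where 0 of 13905 genes (0.0%) were called and 1265 (9.1%) had an unadjusted p under 0.05. None of the 6 had an unadjusted p under 0.05. DESeq2 called 0 of the 6 and 96 of all genes (0.69%). The authors' deposited table has no member under an adjusted p of 0.05, and gives no p for H2afy2. The variants did differ from each other in level. Per kilobase of annotated exon, the mean level was highest for H2afz (271 CPM per kb in S34F, 293 in WT) and H2afy (281 and 256). The ranges of these 2 genes over the 6 libraries overlapped (254 to 317 and 254 to 298 CPM per kb), so their order was not resolved. H2afx followed at 145 and 130 CPM per kb, with a range of 110 to 173. H2afj (49.7 and 48.6) and H2afv (44.6 and 50.7) overlapped each other, and H2afy2 was lowest at 5.35 and 5.15 CPM per kb.

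H2afy (13:56174980-56237722) is the gene of the macroH2A1 forms. Its level was 1948, 1767 and 2027 CPM in S34F replicates 1 to 3 and 1773, 1727 and 1738 CPM in WT. S34F replicates 1 and 3 lay above every WT library and S34F replicate 2 inside the WT range. The means were 1914 ± 133 against 1746 ± 24.1 CPM (SD, n = 3), a log2 fold change of 0.13 with a standard error of 0.094 (edgeR adjusted p = 0.640). The locus overlaps Gm17253 on the opposite strand, and the sources used here do not say whether counting used the strand of the reads.

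H2afy2 (10:61201391-61246895), which encodes macroH2A2, had 15.1, 10.1 and 10.1 CPM in S34F and 9.86, 11.9 and 12.1 CPM in WT. S34F replicate 1 was the highest library and the other S34F libraries lay inside the WT range. The log2 fold change was 0.05 with a standard error of 0.20 (edgeR adjusted p = 0.934). It was -0.17 without S34F replicate 1 and -0.03 without WT replicate 1, so its direction rested on single libraries. This locus overlaps Aifm2 and AC153136.1 on the opposite strand.

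Both H2A.Z genes had means slightly lower in S34F. H2afz (3:137527451-137529886) had 470, 512 and 461 CPM in S34F and 450, 550 and 563 CPM in WT. The lowest library of all was WT replicate 1, so the groups overlapped (log2 fold change -0.12, standard error 0.12, edgeR adjusted p = 0.727). H2afv (11:6327229-6344446) had 70.1, 72.7 and 76.4 CPM in S34F and 82.1, 82.6 and 84.6 CPM in WT. Every S34F library lay below every WT library, which was also the case in one direction or the other for 15.6% of all genes tested. The means were 73.1 ± 3.17 and 83.1 ± 1.33 CPM (SD, n = 3), with a log2 fold change of -0.18, a standard error of 0.086, an edgeR adjusted p of 0.564 and a DESeq2 adjusted p of 0.517. The exact permutation test gave p = 0.1, the smallest that 3 libraries against 3 allow.

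H2afx (9:44142798-44144154) and H2afj (6:136756769-136758595) are single-exon genes in the annotation and had no deposited junction. The S34F libraries had 166, 188 and 235 CPM of H2afx and the WT libraries 226, 150 and 153 CPM. Its libraries differed by pair, with S34F the lower one in replicate 1 and the higher one in replicates 2 and 3 (log2 differences of -0.44, 0.33 and 0.62). The fitted change was 0.16 on the log2 scale with a standard error of 0.19 (edgeR adjusted p = 0.776). H2afj had levels of 87.0, 89.8 and 95.9 CPM in the S34F libraries and 93.2, 98.7 and 74.6 CPM in the WT ones, and WT held both the highest and the lowest library (log2 fold change 0.03, standard error 0.12, edgeR adjusted p = 0.932).

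**Figure D1:**
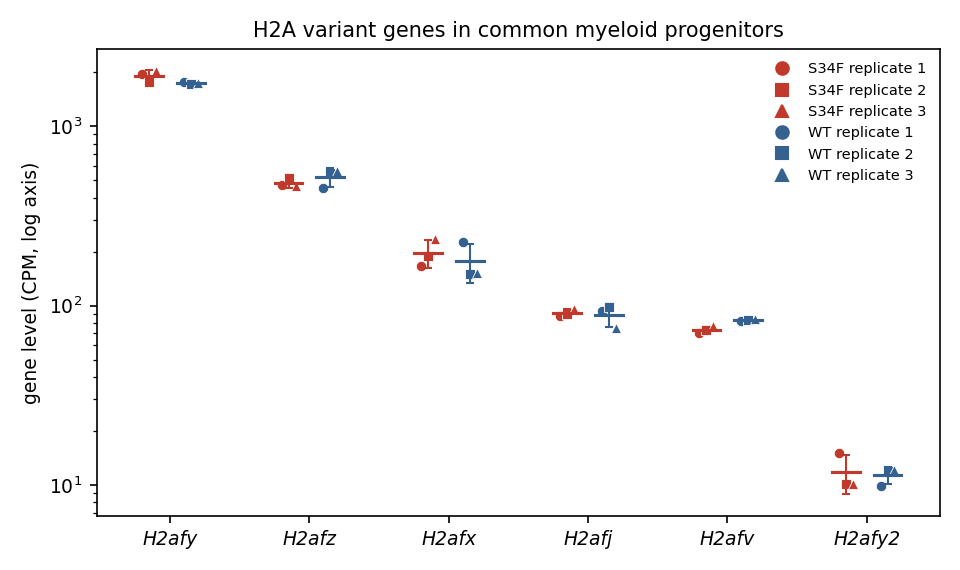
Level of the 6 H2A variant genes in each library, in CPM on a log axis, with S34F in red and WT in blue; the marker shape is the replicate, horizontal lines are group means and bars are 1 SD (n = 3). H2afy is at 1727 to 2027 CPM and H2afy2 at 9.86 to 15.1 CPM, and the groups are apart only for H2afv.

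The choice between the H2afy exons differed between the genotypes, with less of the macroH2A1.1 exon in S34F. Of the reads of the 4 junctions that join either exon to its neighbours, the macroH2A1.1 exon took 2.70, 3.03 and 3.87% in S34F replicates 1 to 3 and 7.02, 7.48 and 6.54% in WT. Every S34F library was below every WT library. Ranges of exon shares apart in this way were found in 16.1% of all exon pairs tested. The means were 3.20 ± 0.600% and 7.01 ± 0.473% (SD, n = 3), a difference of -3.81 percentage points with a standard error of 0.441 (exact permutation p = 0.1, two-sided, the smallest possible). Within replicate numbers the difference was -4.32, -4.45 and -2.67 points. These shares rest on 24004 to 45261 junction reads per library, summed over both sides of each exon. A fragment that crosses both junctions of an exon can enter on both sides. The exact 95% binomial intervals ran from 2.52 to 2.90% in the lowest S34F library and from 3.65 to 4.09% in the highest, and from 6.31 to 6.77% in the lowest WT library. They cover counting error only and take the reads as independent, so they may be too narrow. In bulk RNA, a different share within cells and a different mix of cells cannot be told apart, nor can fewer cells of a type and less RNA per cell. The dendritic, erythroid and megakaryocyte marker sums given above were lower in S34F replicate by replicate, and their part in the exon share was not tested.

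**Figure D2:**
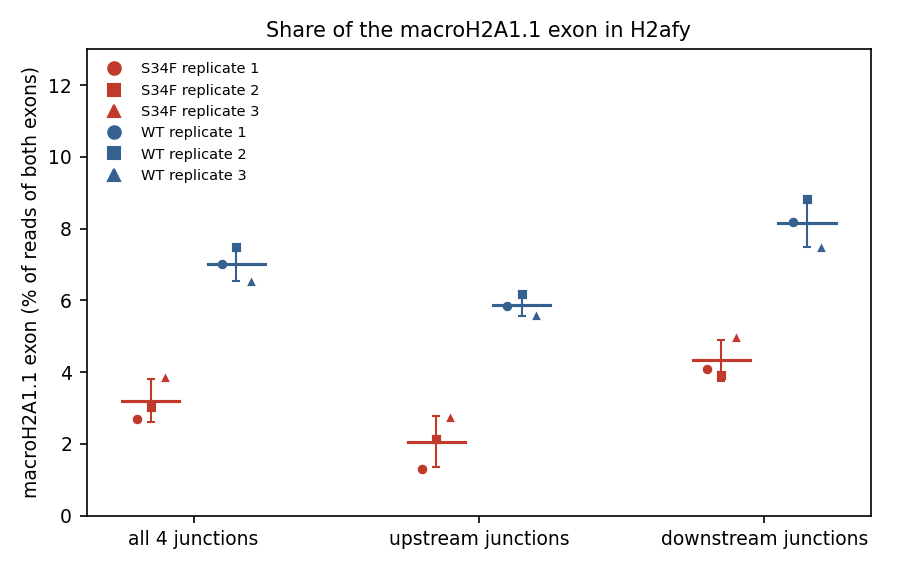
Share of the macroH2A1.1 exon among junction reads of both H2afy exons, in percent, from all 4 junctions, the upstream junctions and the downstream junctions; markers are libraries, lines are means and bars 1 SD (n = 3). From all junctions S34F is at 2.70 to 3.87% and WT at 6.54 to 7.48%, and the groups are apart in each of the 3 measures.

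The same test was run on every pair of non-overlapping exon stretches that shared both flanking ends, with p-values adjusted over all of them. Such a pair can also be 2 parts of 1 exon, as in H2afz, so not every pair is mutually exclusive. An edgeR quasi-likelihood test of the interaction of genotype and exon, on the junction reads of 528 pairs in 254 genes, gave a log2 change in the odds of the macroH2A1.1 exon of -1.20 with a standard error of 0.16 (unadjusted p = 0.000246, adjusted p = 0.0429). This was the lowest p of all pairs. edgeR called 6 of the 528 pairs (1.14%), and all 6 were overlapping versions of this one H2afy event that share most of their reads, so they are 1 result and not 6. All 6 had the same adjusted p of 0.0429, which rested on this repeated entry of 1 event. DESeq2 gave an adjusted p of 2.74e-05 and called 9 pairs (1.7%), which were the 6 of H2afy and 1 each of Stard4, Gas5 and Ccnl2. The edgeR call was near the threshold. Same-numbered libraries deviated together for replicates 1 and 2, and less clearly for replicate 3. With the replicate number as a block the adjusted p was 0.253 and 0 of the 528 pairs (0.0%) were called. It was 0.0776 without S34F replicate 1, 0.192 without S34F replicate 2, 0.0179 without S34F replicate 3 and 0.255, 0.210 and 0.167 without WT replicates 1, 2 and 3. With a single pair kept for each set of flanking exon ends, an alternative chosen after seeing the data, 307 pairs remained and the adjusted p was 0.0687 by edgeR and 2.96e-05 by DESeq2. The log2 change stayed between -1.35 and -1.08 in all of these fits. These values are for the version with the longer macroH2A1.1 exon. Without S34F replicate 1, the 3 versions with the exon that ends 4 bases early were still called by edgeR (log2 changes of -1.38 to -1.37, adjusted p = 0.0326). Their macroH2A1.1 count is mostly the same upstream junction (189 to 1265 reads per library), with 4 to 85 reads of the shorter exon's own junction. They are thus not a separate result.

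**Figure D3:**
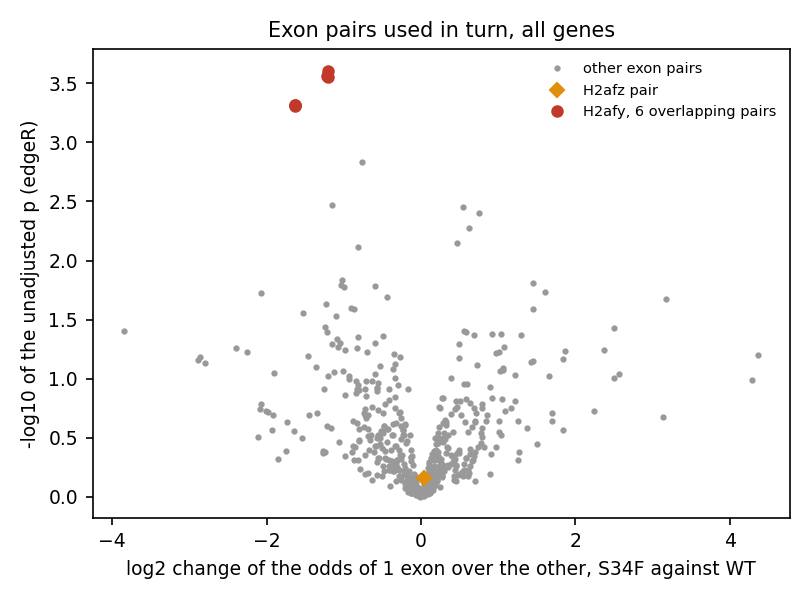
Log2 change of the odds of 1 exon over the other (S34F against WT) against -log10 of the unadjusted edgeR p for 528 pairs of exons, or parts of exons, that share both flanking ends. The sign of other genes' pairs depends on which of the 2 is listed first. The H2afy points are 6 overlapping versions of 1 event at log2 changes of -1.20 to -1.64, and the H2afz pair lies at 0.04.

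The level of each junction was tested as well. The junction into the macroH2A1.1 exon had 189, 252 and 398 reads in S34F and 792, 1142 and 1265 in WT, all S34F counts being lower. Scaled to library size this was 6.51 ± 2.51 against 17.1 ± 1.69 CPM of junction reads (SD, n = 3), a log2 fold change of -1.39 with a standard error of 0.24. The edgeR adjusted p over 125489 junctions was 0.154, where edgeR called 26 (0.0207%). It was 0.0419 with the replicate block (0.047% of junctions called) and 5.10e-06 by DESeq2 (0.125% called). The junction out of this exon had 592, 476 and 737 reads in S34F and 1137, 1596 and 1693 in WT. Its level was 13.9 ± 2.70 against 23.8 ± 2.67 CPM (log2 fold change -0.77, standard error 0.17, edgeR adjusted p = 0.443, DESeq2 adjusted p = 0.00676). For both junctions every S34F library was below every WT library. The share of all junctions with level ranges apart in this way was not computed.

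The macroH2A1.2 exon held nearly all of the reads in both genotypes. The junction into it had 14203, 11615 and 14147 reads in S34F and 12761, 17369 and 21371 in WT, or 308 ± 19.5 against 274 ± 13.7 CPM, and these ranges overlapped. The junction out of it was at 306 ± 17.7 against 267 ± 6.55 CPM, with every S34F library above every WT library (log2 fold change 0.20, standard error 0.12, edgeR adjusted p = 0.684, DESeq2 adjusted p = 0.526). Neither macroH2A1.2 junction passed the test of its level, and the share of all junctions with level ranges apart was not computed. Of the 61 junctions of the H2A variant genes, 49 passed the filter, and edgeR called 0 of these in level (5 had an unadjusted p under 0.05, against 8.0% of all junctions), DESeq2 called the 2 macroH2A1.1 junctions, and the blocked fit called the upstream one of them.

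**Figure D4:**
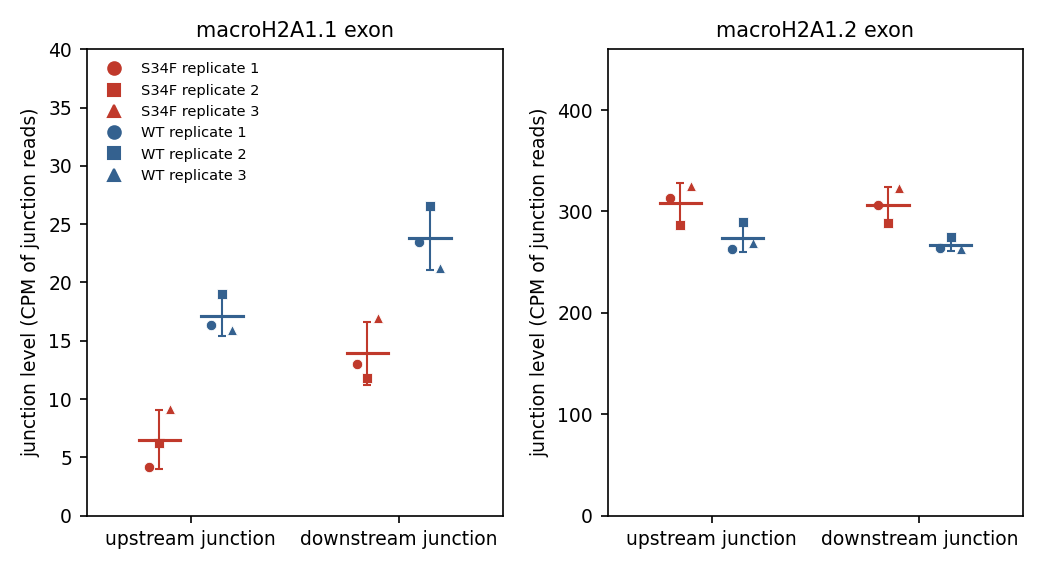
Level of the junctions into (upstream) and out of (downstream) each H2afy exon, in CPM of junction reads, per library with group means and 1 SD (n = 3). Both macroH2A1.1 junctions are lower in all S34F libraries, and the macroH2A1.2 junctions are at 263 to 325 CPM.

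The 2 junctions of the macroH2A1.1 exon did not hold equal numbers of reads. The upstream count was 0.319, 0.529 and 0.540 of the downstream count in S34F and 0.697, 0.716 and 0.747 in WT. The ratio was below 1 in every library, and the 3 S34F values all lay under the lowest WT value (exact permutation p = 0.1, the smallest possible). For the macroH2A1.2 exon the same ratio was 0.996 to 1.05 over the 6 libraries. The macroH2A1.1 share depended on the side accordingly. It was 2.06 ± 0.714% against 5.87 ± 0.291% from the upstream junctions and 4.33 ± 0.569% against 8.16 ± 0.670% from the downstream ones. The difference between genotypes was -3.81 points upstream and -3.83 points downstream. As a ratio the sides differed, with the mean WT share 2.85 times that of S34F upstream and 1.89 times downstream.

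Tests of single splice sites used the same junctions as the exon pair, so their direction was largely set by that result and is not separate evidence. Among reads that leave the shared upstream exon, the macroH2A1.1 acceptor took 1.99 ± 0.706% in S34F and 5.58 ± 0.258% in WT (log2 change in odds -1.60, standard error 0.32, edgeR adjusted p = 0.431, DESeq2 adjusted p = 0.0145). The macroH2A1.2 acceptor took 94.8 ± 0.574% and 89.6 ± 0.916% (log2 change 1.08, standard error 0.22, edgeR adjusted p = 0.431, DESeq2 adjusted p = 0.00125). No acceptor choice of any gene was called by edgeR (0 of 29709, 0.0%, with 2231 or 7.51% at an unadjusted p under 0.05), while DESeq2 called 368 (1.24%). Into the shared downstream exon, the macroH2A1.1 donor took 4.26 ± 0.576% against 7.96 ± 0.666% and the macroH2A1.2 donor 94.2 ± 0.705% against 89.6 ± 0.524%. Their log2 changes in odds, -0.96 (standard error 0.16) and 0.93 (standard error 0.15), were smaller in size than those of the acceptors, a difference that was not tested. The edgeR adjusted p was 0.556 for both donors and the DESeq2 adjusted p 0.0126 and 0.00841, where edgeR called 3 of 30084 donor choices (0.00997%; 6.42% at an unadjusted p under 0.05) and DESeq2 233 (0.774%). Ranges were apart in 17.0% of all acceptor choices and 14.8% of all donor choices. In the authors' deposited table, the DEXSeq comparison of a junction with the rest of its gene gave the junctions into and out of the macroH2A1.1 exon log2 changes of -1.54 and -0.87 with adjusted p of 6.96e-09 and 9.43e-09. In that deposited table of the authors 0.34% of junctions were under 0.05, and the macroH2A1.2 junctions had adjusted p of 0.769 and 0.383.

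Minor forms of the exon pair were rare beside the macroH2A1.2 exon. Reads that skip both exons numbered 317, 117 and 139 in S34F and 277, 368 and 505 in WT. As a share of inclusion and skipping they came to 2.15, 0.965 and 0.938% against 1.98, 1.97 and 2.18%, so S34F replicate 1 was among the WT libraries and the other S34F libraries were lower (exact permutation p = 0.3). In S34F replicate 1 the skipping reads outnumbered the 189 reads into the macroH2A1.1 exon, and in every other library they were fewer than such reads. Reads that join the 2 exons to each other numbered 8 to 28 per library, at most 0.0765% of the reads of the 4 junctions. The shorter macroH2A1.1 form, which ends 4 bases early, had 21, 17 and 4 reads in S34F and 34, 53 and 85 in WT. These were 2.47 ± 1.67% and 3.63 ± 1.01% of the downstream macroH2A1.1 reads, with overlapping ranges (exact permutation p = 0.6).

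No other choice in H2afy passed a test. The exon before the pair has a pair of acceptors 3 bases apart, shown because both have A before the AG and the same 3 bases mark each of them in capitals.
first tandem acceptor, chr13:56197586-56197635: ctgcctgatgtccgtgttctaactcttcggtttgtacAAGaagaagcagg
second tandem acceptor, chr13:56197583-56197632: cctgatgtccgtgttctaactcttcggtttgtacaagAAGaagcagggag
The first of them took 34.7, 34.1 and 34.4% of the reads of both in S34F and 35.4, 35.0 and 34.4% in WT, so the groups overlapped (exact permutation p = 0.2). The acceptor of an alternative last exon at 56197002 took 1.07 ± 0.0162% of the reads of the same donor as the exon pair in S34F and 1.34 ± 0.209% in WT, with every S34F library below every WT library (edgeR adjusted p = 0.798). Among the alternative first exons, the one at 56236707 supplied 88.7 ± 1.33% against 89.1 ± 1.86% of the reads into the second exon. The ones at 56237163 and 56236011 supplied 8.59 ± 0.930% against 8.55 ± 1.98% and 1.87 ± 0.650% against 1.49 ± 0.142%. A few H2afy junctions were confined mostly to some libraries regardless of genotype. An unannotated acceptor at 56197589, 3 bases from the second tandem site, had 17, 415 and 696 reads in S34F and 10, 541 and 33 in WT. An unannotated acceptor at 56191201, inside the macroH2A1.2 exon, had 2, 199 and 0 reads in S34F and 274, 339 and 1 in WT.

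Of the other multi-exon genes, H2afv had an exon that is sometimes skipped. This exon of 114 coding bases (6333727 to 6333840) lies between acceptors with a C before the AG at its own start and a T at the next exon, and the capitals mark the last 3 intron bases.
H2afv skipped exon acceptor, chr11:6333831-6333880: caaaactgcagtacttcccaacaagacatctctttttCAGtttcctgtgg
H2afv next exon acceptor, chr11:6329219-6329268: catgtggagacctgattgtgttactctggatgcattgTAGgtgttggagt
Skipping took 5.88, 4.85 and 5.13% of the reads of the shared donor in S34F and 6.56, 5.99 and 7.30% in WT. Every S34F library was below every WT library, by a margin smaller than the spread within either genotype. The means were 5.29 ± 0.532% and 6.62 ± 0.659% (SD, n = 3), a log2 change in odds of -0.34 with a standard error of 0.26 (edgeR adjusted p = 0.809, DESeq2 adjusted p = 0.709). A small unannotated exon from 6337969 to 6338071 took 14, 17 and 19 reads in S34F and 8, 11 and 32 in WT at its downstream junction (donor choice, edgeR adjusted p = 0.784).

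No tested splicing choice of H2afz was called by edgeR or by DESeq2. Its alternative acceptor at 137529044, inside an exon, took 4.47, 4.01 and 3.62% of the donor's reads in S34F and 3.99, 3.67 and 4.17% in WT. The means were 4.03 ± 0.422% and 3.94 ± 0.253% (log2 change 0.03, standard error 0.22, edgeR adjusted p = 0.993). An alternative donor at 137529013 in the same exon took 2.77 ± 0.710% against 3.11 ± 0.331% of the reads into the last exon (edgeR adjusted p = 0.928). One at 137527650 in the first exon took 1.14 ± 0.135% against 0.968 ± 0.0678% of the reads into the second (edgeR adjusted p = 0.872). Some unannotated acceptors in the second exon had reads in some libraries only. The one at 137528109 had 97 and 92 reads in replicate 1 of S34F and WT and 0 in the other 4 libraries, and the one at 137528118 had 84 and 109 in the same libraries and 0 in the others. The one at 137528130 had 0, 0 and 2 reads in S34F and 0, 123 and 186 in WT.

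H2afy2 had 8 junctions, each the only one at its donor and at its acceptor, with 31 to 200 reads per library, so no choice could be tested. Its acceptors had C before the AG in 7 of 8 and T in the other. Over the H2A variant genes 11 acceptor choices and 16 donor choices met the read limits, of which edgeR called 0 and 0, with 2 and 2 at an unadjusted p under 0.05 (7.51% and 6.42% of all choices). DESeq2 called 2 and 2, all of them at the H2afy exon pair. Ranges did not overlap in 4 of 11 acceptor choices and 2 of 16 donor choices, against 17.0% and 14.8% of all such choices. Of these, 3 acceptor choices were at 1 donor of H2afy, and the 2 donor choices at 1 acceptor of H2afy. A share lost by one form at a common site is gained by the others, so these choices were not independent. The DESeq2 calls are likewise 1 event.

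**Figure D5:**
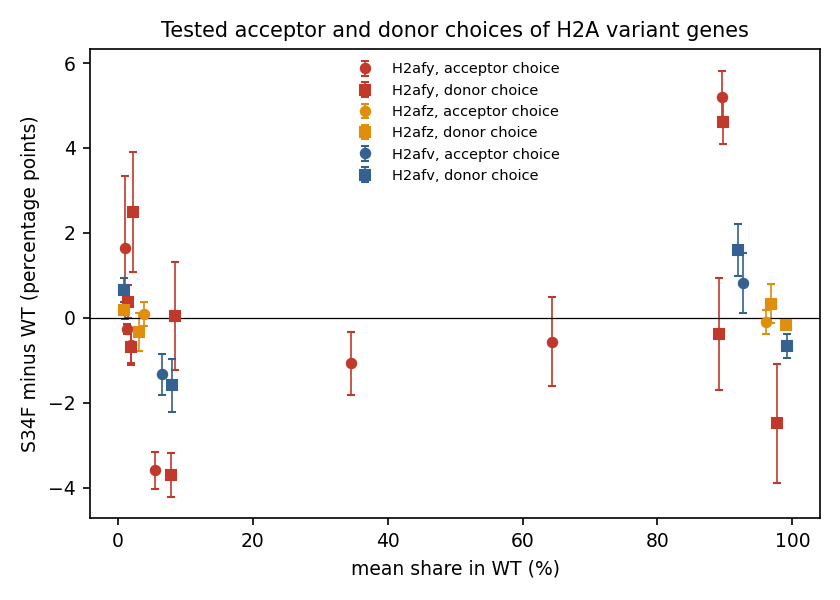
Difference in share between S34F and WT, in percentage points, against the mean share in WT for every tested acceptor choice (circles) and donor choice (squares) of H2afy, H2afz and H2afv; bars are the standard error of the difference. The H2afy exon pair gives the points at WT shares of 5.58 and 7.96% (macroH2A1.1, below 0) and of 89.6% (macroH2A1.2, above 0).

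Genes that act on these variants and other histone genes, in 6 lists, were not called at the gene level either, by edgeR or by DESeq2. Their background is the 0.0% and 0.69% of all genes given above, and the median of all genes was -0.01 on the log2 scale. Regulators of the macroH2A1 exon choice known mainly from human cells were Qk, an RNA-binding protein that favours macroH2A1.1, and the RNA helicases Ddx5 and Ddx17. Qk had 174 ± 14.4 CPM in S34F libraries and 153 ± 7.16 CPM in WT ones (SD, n = 3), with every S34F library above every WT library, where 15.6% of all genes had ranges apart (log2 fold change 0.18, standard error 0.098, edgeR adjusted p = 0.581). Ddx5 was at 1563 ± 292 against 1276 ± 343 CPM and Ddx17 at 409 ± 3.28 against 440 ± 40.8 CPM, and both overlapped.

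Among 10 partners and remodellers of macroH2A, 7 were higher and 3 lower, with a median log2 fold change of 0.12. Supt16h, a subunit of the histone chaperone FACT, was at 462 ± 38.4 against 339 ± 87.6 CPM (log2 fold change 0.45, edgeR adjusted p = 0.548). Parp1, the main enzyme that makes poly-ADP-ribose, was at 508 ± 16.2 against 443 ± 31.4 CPM (0.20, adjusted p = 0.569), and Spop, a ubiquitin ligase adaptor that acts on macroH2A1, at 107 ± 3.48 against 95.2 ± 2.66 CPM (0.17, adjusted p = 0.569, also edgeR). The S34F and WT ranges were apart for 2 of the 10, Parp1 and Spop, against 15.6% of all genes, and overlapped for Supt16h.

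Of 19 genes that deposit or remove H2A.Z, 7 were higher and 12 lower, with a median of -0.04. Those of lowest p were Actr8 (39.8 ± 0.874 against 46.9 ± 4.30 CPM) and Ino80 (93.7 ± 2.61 against 81.9 ± 9.80 CPM), both of the INO80 remodelling complex, and Ruvbl1 (133 ± 4.27 against 151 ± 18.9 CPM), an ATPase shared by several remodellers. Their edgeR adjusted p were 0.552, 0.590 and 0.597. Of 13 measured kinases, readers and phosphatases of H2A.X, 9 were higher and 4 lower (median 0.02). Trp53bp1, which binds chromatin near breaks, was at 100 ± 9.23 against 124 ± 9.03 CPM (log2 fold change -0.31, edgeR adjusted p = 0.538). It was 1 of 4 genes of these 13 with ranges apart, against 15.6% of all genes. Eya3, a phosphatase, was at 49.2 ± 3.87 against 32.5 ± 14.2 CPM and Baz1b, a kinase of H2A.X, at 498 ± 33.5 against 429 ± 36.8 CPM (edgeR adjusted p = 0.552 and 0.569).

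Other replication-independent histone variants numbered 5, with 2 higher and 3 lower (median -0.17). Cenpa, the centromeric H3, was at 65.1 ± 0.989 against 73.2 ± 5.72 CPM, H3f3a, a gene of H3.3, at 501 ± 25.3 against 575 ± 72.1 CPM, and H1f0, a linker histone, at 17.0 ± 2.79 against 19.2 ± 3.33 CPM. Of 16 measured replication-coupled H2A genes, 4 were higher and 12 lower, with a median of -0.13. Hist2h2ab was at 14.5 ± 1.00 against 17.5 ± 0.713 CPM, Hist3h2a at 14.4 ± 1.99 against 9.87 ± 4.08 CPM and Hist2h2aa2 at 3.69 ± 1.61 against 5.37 ± 0.514 CPM. These are near-identical copies, and the sources used here do not say how reads that match several copies were counted.

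The genes whose level over the 6 libraries was most like that of H2afy were Kif1c (Pearson r of log2 CPM 0.947), Wars2 (0.945), Mbnl1 (0.943), Tcf4 (0.943) and Ebag9 (0.943), out of 9168 genes with a mean of at least 10 CPM. The points share their libraries and depth, and this is a description of 6 libraries.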

How the data were processed

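RNA from 3 S34F and 3 WT pools was ribosome-depleted and sequenced as strand-specific paired reads of 100 bp, per the labels' protocols and the series text. Genotypes were taken from the sample titles, because the genotype entry of the characteristics reads S34F for all 6 samples; the tables' MT columns were read as S34F. Per the series text, TopHat aligned the reads to mm9. HTSeq 0.5.4p1, DESeq2 1.6.1, TopHat2 2.0.8, Bowtie2 2.1.0 and Cufflinks 2.1.1 are listed without a role, per the submitters' processing notes. For the counting, neither annotation nor strand setting is given in the sources used here.

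Raw counts of genes and of splice junctions were deposited by the authors without normalization. Per the file headers, the tables also hold the authors' fold change as a ratio, log2 fold changes, p-values, a DEXSeq test statistic (a score), a mean count (signal) and FPKM. Of these, only log2 changes and adjusted p-values named as the authors' are printed. Apart from FPKM, the per-sample columns left unused numbered 0. The smallest junction total over 6 libraries was 12 reads, so rarer junctions are not seen. Junction positions name exon bases at either side of the intron, since moving 1 base inward gave GT-AG at 99.98% of such introns and the printed positions at 0%.

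edgeR 4.0.16 in R 4.3.3 (TMM, default filter, quasi-likelihood test) was fitted to all genes and junctions. Where a symbol stood on several rows (Srcap), the row with more counts was used. Splicing choices entered as 2 counts per library with a term per library, a term for the form and the tested interaction. They needed 20 reads in every library, with each form at 1% of reads, or 2% for exon pairs. These pairs were non-overlapping exons or parts of exons of 10 to 1000 nt that shared both flanking ends, with reads joining them at most 5%. DESeq2 1.42.0 and limma 3.58.1 (0.5 added to each count) were alternatives. Benjamini-Hochberg adjustment ran over each whole table, with a threshold of 0.05, two-sided; exact tests used scipy 1.17.1. Intervals are exact binomial (Clopper-Pearson).

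Libraries were separate pools, although donors shared between pools are not stated. Over 12143 genes, deviations from the group means correlated at 0.342, 0.363 and 0.102 for replicate numbers 1, 2 and 3. S34F replicate 2 with WT replicate 3 gave 0.200, and the other unlike numbers gave -0.428 to 0.0597. The blocked fits took the numbers to pair the libraries, which is less clear for number 3. The labels name no shared batch. The members and gene lists were chosen with earlier results of these data known. All 6 members were described; from each list the genes past an adjusted p of 0.05 by either tool, otherwise the 3 of lowest edgeR p, were named, with the 5 genes most correlated with H2afy and the members' junctions at 1% or more of a shared donor or acceptor. Library-specific, joining and skipping junctions were added after their values were seen.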

Additional observations from a re-analysis of the deposited data

How the results depend on the processing

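The lower macroH2A1.1 share in S34F kept its direction in every alternative, with a difference of -4.15 to -3.56 percentage points when single libraries were left out and -3.81 or -3.83 points from 1 side alone; within replicate numbers the exact sign-flip p was 0.25, the smallest possible with 3 pairs. The log2 odds change of the exon pair was -1.20 with limma (adjusted p = 0.184), with a minimum of 10 reads (0.0512), with the replicate block (0.253) and with 1 pair per set of flanking ends (0.0687), and -1.08 without both replicate 1 libraries (0.363); leaving out single libraries gave -1.35 to -1.09. A minimum of 50 reads (adjusted p = 0.0291), DESeq2 and leaving out S34F replicate 3 kept the call. Without S34F replicate 1 the 3 overlapping versions with the shorter macroH2A1.1 exon, which rest mostly on the shared upstream junction, were still called (0.0326). The cause of these shifts was not tested, except for 1 pair per set of ends. In the main edgeR fit the 6 H2afy versions shared the adjusted p of 0.0429, at unadjusted p of 0.000246 to 0.000487. With 1 pair per set of ends the unadjusted edgeR p was 0.000224, which is not higher, and the adjusted p 0.0687. The main edgeR call thus rested on the entry of 1 event as 6 versions. The number of exon pairs called, 6, became 0 with limma, the minimum of 10 reads, the replicate block, without both replicate 1 libraries and with 1 pair per set of ends (1 by DESeq2), and 0 to 6 without single libraries.

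Genes called numbered 0 by edgeR, 5 with the replicate block, 96 by DESeq2, 599 without both replicate 1 libraries and 0 to 1172 without single libraries, the highest without WT replicate 1. Junctions called in level numbered 26, then 59 with the replicate block, 157 by DESeq2, 724 without both replicate 1 libraries and 12 to 3563 without single libraries, again highest without WT replicate 1 and lowest without WT replicate 3. Acceptor choices called went from 0 to 368 with DESeq2 and 59 with limma, and donor choices from 3 to 233 with DESeq2, 66 with limma, 0 with the replicate block, 0 without both replicate 1 libraries and 0 to 5 without single libraries. Of the gene levels, H2afy2 ran from -0.17 (without S34F replicate 1) to 0.15 without single libraries, was -0.03 without WT replicate 1 and was -0.26 without both replicate 1 libraries, and H2afj ran from -0.078 (without WT replicate 3) to 0.12 and was -0.012 without S34F replicate 3; the 4 other members kept their direction without single libraries, from 0.0034 (without S34F replicate 3) to 0.38 (without WT replicate 1) for H2afx, with 0.054 and 0.065 without WT replicates 2 and 3 and 0.48 without both replicate 1 libraries, from -0.21 (without WT replicate 1) to -0.056 (without WT replicate 3) for H2afz, from 0.083 (without S34F replicate 3) to 0.19 (without S34F replicate 2) for H2afy and from -0.22 to -0.16 for H2afv, and the replicate block changed no call of a member's gene level. Leaving out both replicate 1 libraries and keeping 1 pair per set of ends were chosen after seeing the data. Rare forms such as the shorter macroH2A1.1 exon, at 4 to 85 reads, are limited by depth.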
